A study of Rattus norvegicus with 12 samples.

Results

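Fibroblast marker genes were followed in a culture of cardiac myocytes. The 10 genes were Pdgfra, Pdgfrb, Dcn, Lum, Postn, Tcf21, Thy1, Fap, Dpt and Ddr2, taken by gene symbol from the 18483 genes of the count and FPKM matrices. They were taken by name, with no threshold on their values, though earlier results of these data were known when the list was chosen. All 10 were found, and all 10 were among the 13967 genes that had enough counts to be tested.

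RNA was sequenced from neonatal rat ventricular myocytes (NRVMs) of Sprague-Dawley rats in 4 groups of 3 samples, described as independent biological replicates. All cells were transfected with an siRNA, which was either the negative control siNeg or siSlc39a2, a single sequence against the zinc importer Slc39a2. The siNeg PE and siSlc39a2 PE groups were then given phenylephrine (PE), an alpha-adrenergic agonist that enlarges cardiomyocytes, for 36 h according to the sample labels, while the siNeg and siSlc39a2 groups were not. The study's culture methods give a longer time for PE than the labels do. The myocytes had been separated from other ventricular cells on a Percoll gradient before plating, so the fibroblast genes were read in cultures depleted of fibroblasts but not sorted. The samples held between 24065539 and 28603854 counts. The Slc39a2 counts of the siNeg samples were 50, 50 and 59, those of the siSlc39a2 samples were 21, 11 and 2, and the log2 fold change of Slc39a2 was -2.35 without PE and -2.33 with it. Tnnt2, a troponin of the cardiomyocyte contractile apparatus, reached 4416 ± 482 FPKM (SD, n = 3) in siNeg, where collagen gene Col1a1 reached 1779 ± 291 FPKM. In siNeg PE replicate 1, siSlc39a2 PE replicate 1, siSlc39a2 replicate 2 and siNeg replicate 1, most members were the lowest of their group (8, 7, 7 and 7 of 10), and in siSlc39a2 PE replicate 3 the highest (8 of 10). Calls of members that changed when a library was left out are given with the comparison they belong to.

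Cardiac fibroblasts build and remodel the collagen-rich matrix between myocytes. Resident fibroblasts are commonly recognised by Pdgfra, Tcf21 and Ddr2, and after injury they can turn into activated cells that deposit more matrix and switch on genes such as Postn and Fap. No single marker separates the number of fibroblasts from their state, since a gene can fall because there are fewer cells or because each cell makes less RNA. In bulk RNA these cannot be told apart.

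Promoter sequence was at hand for 6 of the 10 members. Those of Tcf21, Pdgfra, Postn and Dpt are shown because these genes took different directions below. Each line is the 250 bases before the annotated start, 5′ to 3′ on the strand of the gene, from RefSeq on GRCr8. The positions are chr1:24520249-24520498 on the plus strand for Tcf21, chr14:33408517-33408766 on the minus strand for Pdgfra, chr2:140677811-140678060 on the plus strand for Postn and chr13:79656091-79656340 on the plus strand for Dpt. Capitals mark matches to the motifs described after the sequences.
Tcf21: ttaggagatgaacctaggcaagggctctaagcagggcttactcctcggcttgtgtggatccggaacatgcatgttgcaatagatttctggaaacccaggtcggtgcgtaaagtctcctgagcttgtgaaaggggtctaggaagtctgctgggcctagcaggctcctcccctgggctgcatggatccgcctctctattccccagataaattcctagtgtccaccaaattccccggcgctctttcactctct
Pdgfra: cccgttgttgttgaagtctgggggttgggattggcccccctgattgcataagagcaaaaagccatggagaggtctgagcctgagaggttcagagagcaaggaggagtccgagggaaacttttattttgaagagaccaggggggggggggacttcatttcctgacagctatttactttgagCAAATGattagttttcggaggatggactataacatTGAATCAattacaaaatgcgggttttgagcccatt
Postn: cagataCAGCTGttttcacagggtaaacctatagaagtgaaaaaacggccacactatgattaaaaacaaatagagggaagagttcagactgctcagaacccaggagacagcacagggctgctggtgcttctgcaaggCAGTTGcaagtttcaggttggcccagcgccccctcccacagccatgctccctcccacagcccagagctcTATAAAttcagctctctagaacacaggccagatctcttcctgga
Dpt: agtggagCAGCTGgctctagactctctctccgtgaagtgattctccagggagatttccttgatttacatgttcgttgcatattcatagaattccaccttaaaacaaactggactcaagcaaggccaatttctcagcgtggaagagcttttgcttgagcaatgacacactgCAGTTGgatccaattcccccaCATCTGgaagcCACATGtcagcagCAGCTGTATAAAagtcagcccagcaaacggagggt

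The motifs searched, on both strands, were the E-box CANNTG read by basic helix-loop-helix factors such as Tcf21 itself, the AP-1 site TGANTCA, the TEAD site GGAATG and the TATA sequence TATAAA. In windows of 300 bases, from 250 before to 50 after the start, an E-box was found in 5 of the 6 member promoters and in 72.1% of 33469 promoters of the same length. Dpt held 5 E-boxes, the last of which adjoined its TATAAA, and Postn held 2, while Tcf21 held none. TATAAA was found in Postn and Dpt and in 14.2% of all promoters. The AP-1 site was found in Pdgfra, 35 bases before the start, and in 7.33% of all promoters. The TEAD site was in none of the 6, against 14.2% of all promoters. These matches describe the letters of the windows and do not show binding.

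In the siNeg cells, the members spanned a wide range of levels, compared here per transcript length as FPKM. Postn, a matricellular protein of activated fibroblasts and of the developing heart, had the highest mean, 132 ± 16.9 FPKM (SD, n = 3). Pdgfrb, the platelet-derived growth factor receptor of fibroblasts and pericytes, followed with 60.0 ± 7.46, and decorin (Dcn), a small proteoglycan that binds collagen fibrils, with 37.3 ± 0.578. Dermatopontin (Dpt), a small protein of the collagen matrix, had 28.1 ± 4.25 FPKM, Tcf21, a transcription factor of the fibroblast lineage, 22.7 ± 0.612, and lumican (Lum), a relative of decorin, 17.2 ± 0.214. The collagen receptor Ddr2 had 10.8 ± 2.01 FPKM, the receptor Pdgfra 6.0 ± 0.901 and the surface glycoprotein Thy1 4.74 ± 0.235. Fap, a surface protease of activated fibroblasts, was close to the limit of these libraries at 0.363 ± 0.126 FPKM, with 14, 29 and 22 counts. Postn alone made up 40.0% to 43.3% of the summed FPKM of the members in siNeg.

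**Figure D1:**
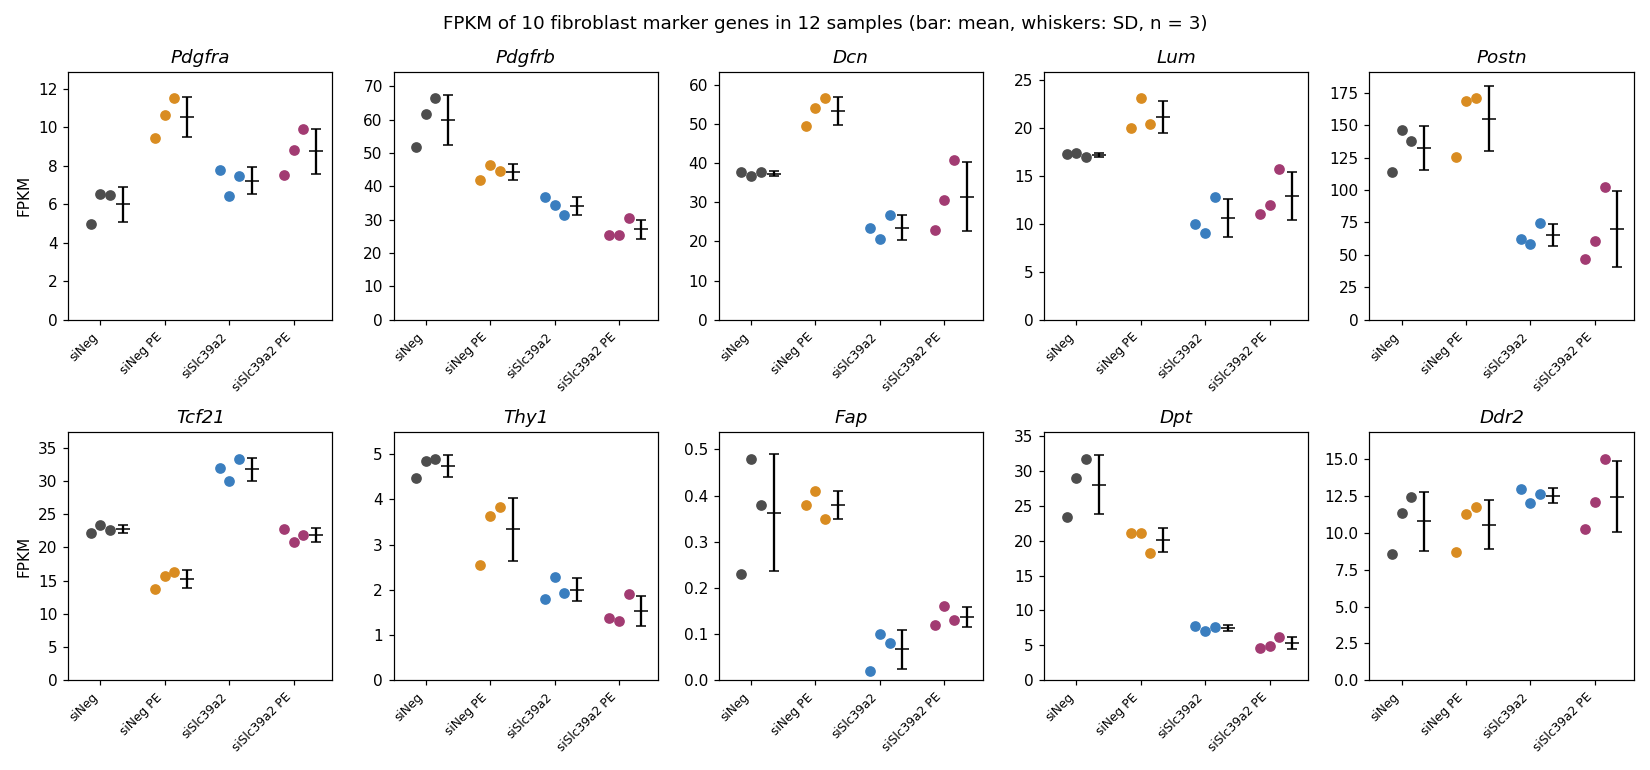
FPKM of each fibroblast marker gene in each of the 12 samples, one panel per gene with its own axis from 0, groups along the horizontal axis. Points are samples, and the black bar and whiskers are the mean and SD of 3 samples. Dpt stays below 8 FPKM in both siSlc39a2 groups and above 18 in both siNeg groups, Tcf21 is highest in siSlc39a2, and Ddr2 lies between 8.55 and 15.05 in all samples.

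Knockdown of Slc39a2 without PE lowered 7 of the 10 fibroblast markers, raised Tcf21, and left Pdgfra and Ddr2 without a call (edgeR's quasi-likelihood test, Benjamini-Hochberg adjusted p below 0.05 over all genes tested). Of all genes tested, 26.4% were lower and 22.8% higher by the same rule. The median log2 fold change of the members was -0.91, against -0.016 over all genes tested. Matrix genes and surface proteins were among those that fell, while the lineage factor rose.

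Dpt fell the most firmly. It had 23.45, 29 and 31.81 FPKM in siNeg and 7.83, 7.07 and 7.61 in siSlc39a2. The groups lay far apart, and in the fit the level was 4.11 times lower (log2 fold change -2.04, standard error, SE, 0.12, adjusted p = 3.00e-08). Fap had the largest log2 fold change, -2.64 (SE 0.43, adjusted p = 2.65e-04), from 14, 29 and 22 counts to 1, 6 and 4. At such counts its direction is known better than its size, and on log2(FPKM + 1) with limma the difference was -0.40.

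Postn had 113.46, 146.14 and 137.48 FPKM in siNeg and 62.52, 58.67 and 74.79 in siSlc39a2. The highest knockdown sample was well under the lowest control, with a log2 fold change of -1.17 (SE 0.22, adjusted p = 7.66e-04). Thy1, which is carried by fibroblasts and by several other cell types, fell from 4.47, 4.85 and 4.9 FPKM to 1.8, 2.29 and 1.92, a log2 fold change of -1.37 (SE 0.17, adjusted p = 2.88e-05).

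The small proteoglycans moved by similar amounts. Dcn had 37.59, 36.62 and 37.65 FPKM in siNeg and 23.41, 20.52 and 26.69 in siSlc39a2 (log2 fold change -0.80, SE 0.15, adjusted p = 8.77e-04). Lum had 17.27, 17.34 and 16.94 FPKM in siNeg and 9.95, 8.99 and 12.8 in siSlc39a2 (log2 fold change -0.86, SE 0.14, adjusted p = 2.25e-04). The control samples of both genes were nearly equal to each other, and no knockdown sample reached them.

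The platelet-derived growth factor receptors parted. Pdgfrb had 51.78, 61.82 and 66.35 FPKM in siNeg and 36.89, 34.31 and 31.47 in siSlc39a2, which was 1.93 times lower in the fit (log2 fold change -0.95, SE 0.096, adjusted p = 4.37e-06). Pdgfra had 4.96, 6.54 and 6.5 FPKM in siNeg and 7.78, 6.42 and 7.46 in siSlc39a2. These samples overlapped, and the log2 fold change was 0.12 with a 95% interval from -0.14 to 0.38 (adjusted p = 0.439). A fall of Pdgfra as large as that of Pdgfrb lies outside this interval.

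Tcf21 went the other way. It had 22.17, 23.38 and 22.62 FPKM in siNeg and 31.94, 29.99 and 33.37 in siSlc39a2, with every knockdown sample above every control (log2 fold change 0.34 on the count scale, SE 0.075, adjusted p = 0.00236). Ddr2 had 8.55, 11.38 and 12.44 FPKM in siNeg and 12.96, 12.01 and 12.66 in siSlc39a2. Its groups overlapped, the log2 fold change was -0.039, and the 95% interval ran from -0.40 to 0.32 (adjusted p = 0.859). The fold changes come from counts scaled by TMM, and on that scale the difference between siSlc39a2 and siNeg was lower than in FPKM by a median of 0.14 (log2) over all genes tested, by 0.14 for Tcf21 and by 0.26 for Ddr2.

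**Figure D2:**
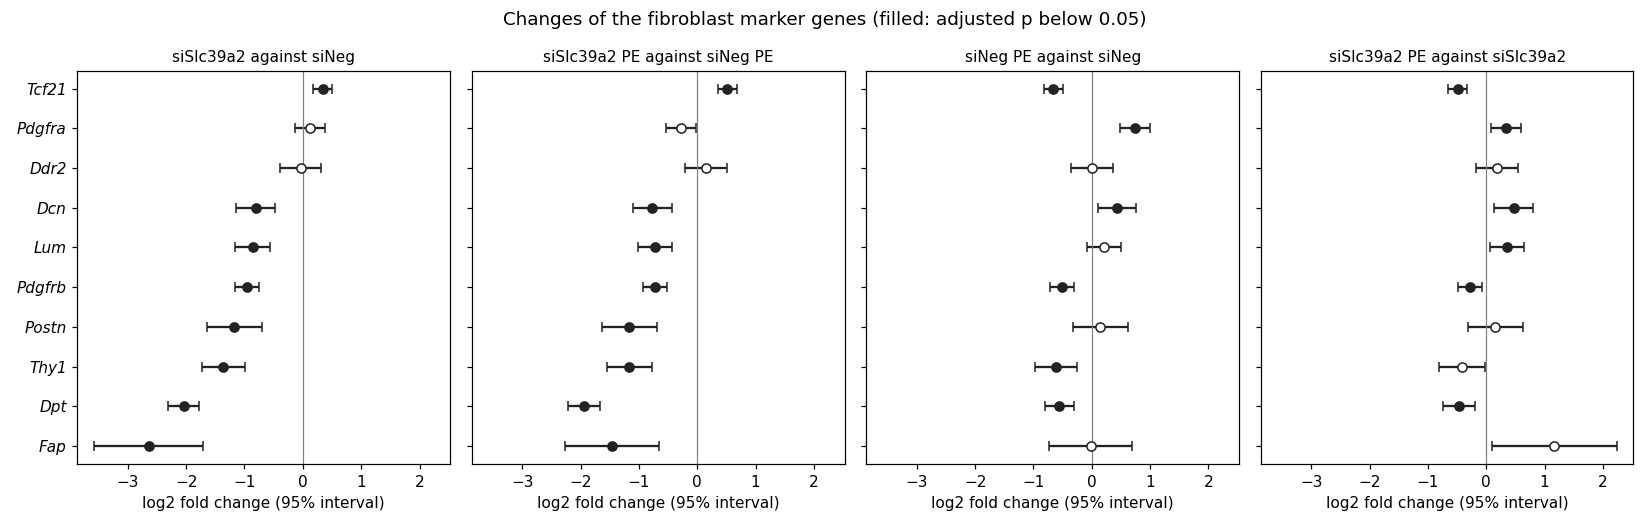
Log2 fold changes of the 10 members from edgeR with their 95% intervals, one panel for each of the 4 pairwise comparisons. Filled points have an adjusted p below 0.05. In both knockdown panels the same 7 genes lie to the left of 0 and Tcf21 to the right, and in the PE panels filled points lie on both sides.

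With PE in both groups, knockdown gave the same calls in 10 of 10 members. The 7 genes that were lower without PE were lower again, Tcf21 was higher again, and Pdgfra and Ddr2 again had no call. Of all genes tested, 28.1% were lower and 29.2% higher in siSlc39a2 PE against siNeg PE. The median log2 fold change of the members was -0.75, against 0.010 over all genes tested.

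Dpt had 21.15, 21.16 and 18.2 FPKM in siNeg PE and 4.6, 4.95 and 6.25 in siSlc39a2 PE (log2 fold change -1.95, SE 0.13, adjusted p = 6.10e-08). Postn had 125.76, 168.84 and 170.49 FPKM in siNeg PE and 46.59, 60.97 and 102.26 in siSlc39a2 PE (log2 fold change -1.16, SE 0.22, adjusted p = 6.48e-04). The third siSlc39a2 PE sample was far above the other two, though still below every siNeg PE sample. Without that sample and siNeg replicate 1, which were left out together after the data were seen, 9 members were called in this comparison, Pdgfra being added at -0.38. Pdgfra was also called without siSlc39a2 PE replicate 3 alone (adjusted p = 0.0222) and without siNeg PE replicate 1 (-0.34, adjusted p = 0.0449), and with all samples by DESeq2 (-0.28, adjusted p = 0.0442) and limma on log2(FPKM + 1) (-0.36, adjusted p = 0.0049).

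Thy1 had 2.54, 3.63 and 3.84 FPKM in siNeg PE and 1.37, 1.3 and 1.91 in siSlc39a2 PE (log2 fold change -1.17, adjusted p = 1.25e-04). Fap had 23, 25 and 21 counts in siNeg PE and 7, 10 and 8 in siSlc39a2 PE, with a log2 fold change of -1.46 (SE 0.37, adjusted p = 0.00487). Dcn, Lum and Pdgfrb fell by 0.77, 0.72 and 0.73 on the log2 scale, with adjusted p-values of 9.08e-04, 6.15e-04 and 4.38e-05. All of these groups were apart from each other.

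Tcf21 had 13.68, 15.72 and 16.27 FPKM in siNeg PE and 22.82, 20.79 and 21.89 in siSlc39a2 PE, again with no overlap (log2 fold change 0.51, SE 0.077, adjusted p = 1.17e-04). Pdgfra had 9.43, 10.65 and 11.49 FPKM in siNeg PE and 7.53, 8.82 and 9.88 in siSlc39a2 PE. Its groups overlapped, and its log2 fold change of -0.28 (95% interval -0.54 to -0.025) had an unadjusted p of 0.0339 and an adjusted p of 0.0577. Ddr2 had a log2 fold change of 0.15 (95% interval -0.21 to 0.50, adjusted p = 0.474).

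PE in siNeg cells moved the members in both directions. In siNeg PE against siNeg, Pdgfrb, Tcf21, Thy1 and Dpt fell and Pdgfra and Dcn rose, against 25.7% of all genes tested lower and 24.0% higher. The median over the members was -0.00495 on the log2 scale, against -0.014 over all genes tested. The siNeg samples here are the same as in the knockdown comparison above.

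Pdgfra rose from 4.96, 6.54 and 6.5 FPKM to 9.43, 10.65 and 11.49, a log2 fold change of 0.74 (SE 0.12, adjusted p = 3.89e-04). Pdgfrb, its sister receptor, fell from 51.78, 61.82 and 66.35 FPKM to 41.88, 46.49 and 44.73, a log2 fold change of -0.51 (adjusted p = 0.00103). Both pairs of groups were apart. Tcf21 fell from 22.17, 23.38 and 22.62 FPKM to 13.68, 15.72 and 16.27, a log2 fold change of -0.66 (SE 0.077, adjusted p = 3.31e-05).

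Thy1 fell by 0.62 and Dpt by 0.55 on the log2 scale (adjusted p = 0.00825 and 0.00207), without overlap between the groups. Dcn rose from 37.59, 36.62 and 37.65 FPKM to 49.32, 53.97 and 56.46, a log2 fold change of 0.44 (SE 0.15, adjusted p = 0.0297). This call was lost when any siNeg sample, siNeg PE replicate 2 or siNeg PE replicate 3 was left out, with adjusted p-values between 0.055 and 0.090.

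Among the members, the 2 most tied to activation, Postn and Fap, had no call. Genes of the wider activation list, given below, did have calls with PE. Postn had a log2 fold change of 0.14 (95% interval -0.32 to 0.61, adjusted p = 0.596), and Fap had 14, 29 and 22 counts without PE and 23, 25 and 21 with it (log2 fold change -0.014, interval -0.73 to 0.70, adjusted p = 0.974). The interval of Fap is wide enough to hold a change of over 1.5 times in either direction. Lum (0.22, adjusted p = 0.195) and Ddr2 (0.0045, adjusted p = 0.984) had no call either.

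In knockdown cells, PE gave 3 lower and 3 higher members, against 29.3% of all genes tested lower and 30.7% higher in siSlc39a2 PE against siSlc39a2. The member median was 0.17, against 0.0058 over all genes tested. Tcf21 fell from 31.94, 29.99 and 33.37 FPKM to 22.82, 20.79 and 21.89 (log2 fold change -0.49, SE 0.075, adjusted p = 1.66e-04) and Dpt from 7.83, 7.07 and 7.61 to 4.6, 4.95 and 6.25 (-0.46, adjusted p = 0.0074). These groups were apart.

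The other calls were less firm. Pdgfra rose by 0.34 on the log2 scale (adjusted p = 0.0275). Pdgfrb fell by 0.28 on the log2 scale (adjusted p = 0.0226), Dcn rose by 0.47 (adjusted p = 0.0179) and Lum by 0.35 (adjusted p = 0.0405), and in all 3 genes the samples of the groups overlapped in CPM, counts scaled to library size. Without siSlc39a2 PE replicate 3 and siNeg replicate 1, Pdgfra, Dcn and Lum lost their calls (0.24, 0.25 and 0.19) and Thy1, at -0.41 and an adjusted p of 0.0642 with all samples, gained one at -0.59. Leaving out any 1 of the 6 samples ended 1 or more of these 4 calls, and without siSlc39a2 replicate 2 all 4 were lost and Fap was called (1.65, adjusted p = 0.0347). Thy1 was also called without siSlc39a2 PE replicate 3 alone (-0.58, adjusted p = 0.0208) and without siSlc39a2 replicate 1 (-0.51, adjusted p = 0.0475). Fap had 1, 6 and 4 counts in siSlc39a2 and 7, 10 and 8 in siSlc39a2 PE, with a log2 fold change of 1.17 (SE 0.49, adjusted p = 0.0557).

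Whether the effect of knockdown differed with PE was tested by the interaction. None of the 10 members passed, while 1.88% of all genes tested were lower and 1.73% higher. Pdgfra had the only unadjusted p under 0.05 (log2 difference -0.40, SE 0.17, unadjusted p = 0.0346, adjusted p = 0.265). DESeq2 and limma also called 0 members. The widest interval was that of Fap, 1.18 with limits of -0.098 and 2.46, and for Dpt the interval ran from -0.28 to 0.46.

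Ordered by mean CPM, and with overlap read in CPM, the 4 groups did not line up in one way for all members. Dcn, Lum and Postn shared the order siSlc39a2, siSlc39a2 PE, siNeg, siNeg PE from low to high. In all 3 the siSlc39a2 and siSlc39a2 PE samples overlapped. Pdgfrb, Thy1 and Dpt shared another order, siSlc39a2 PE, siSlc39a2, siNeg PE, siNeg, in which all neighbours were apart for Dpt. Tcf21 ran from siNeg PE through siSlc39a2 PE and siNeg to siSlc39a2, with no overlap between neighbours, and Pdgfra from siNeg to siNeg PE. The highest group was 6.40 times the lowest for Fap, 5.67 times for Dpt and 1.14 times for Ddr2, whose neighbours all overlapped.

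Within each sample, members tied to activation were set against those of resident fibroblasts as differences of log2 CPM. These are descriptions of the values above, with no test of their own. Postn exceeded Pdgfra by 3.38 ± 0.062 (SD, n = 3) in siNeg and 2.09 ± 0.16 in siSlc39a2, and with PE by 2.78 ± 0.12 and 1.84 ± 0.39. The lowest siNeg PE sample, 2.65, stood above the highest of either knockdown group, 2.28. Against Tcf21, Postn was at 3.96 ± 0.16 in siNeg and 2.45 ± 0.11 in siSlc39a2, and with PE at 4.76 ± 0.12 and 3.02 ± 0.60. In siNeg cells PE thus narrowed the distance of Postn to Pdgfra and widened that to Tcf21, while Postn itself had no call. In knockdown cells the samples with and without PE overlapped in both distances.

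Fap was below Pdgfra by 5.54 ± 0.28 in siNeg and 7.88 ± 0.84 in siSlc39a2 on the same scale, so the counts of 1 to 6 in siSlc39a2 spread widely. Pdgfrb exceeded Pdgfra by 3.03 ± 0.070 in siNeg and 1.96 ± 0.17 in siSlc39a2, and with PE by 1.79 ± 0.10 and 1.35 ± 0.12. Postn made up 32.0% to 35.8% of the summed member FPKM in siSlc39a2 and 30.5% to 41.9% in siSlc39a2 PE. That sum was 284 to 338 FPKM in siNeg and 180 to 209 in siSlc39a2. With PE it was 293 to 355 and 153 to 244, the highest knockdown value being that of replicate 3.

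**Figure D3:**
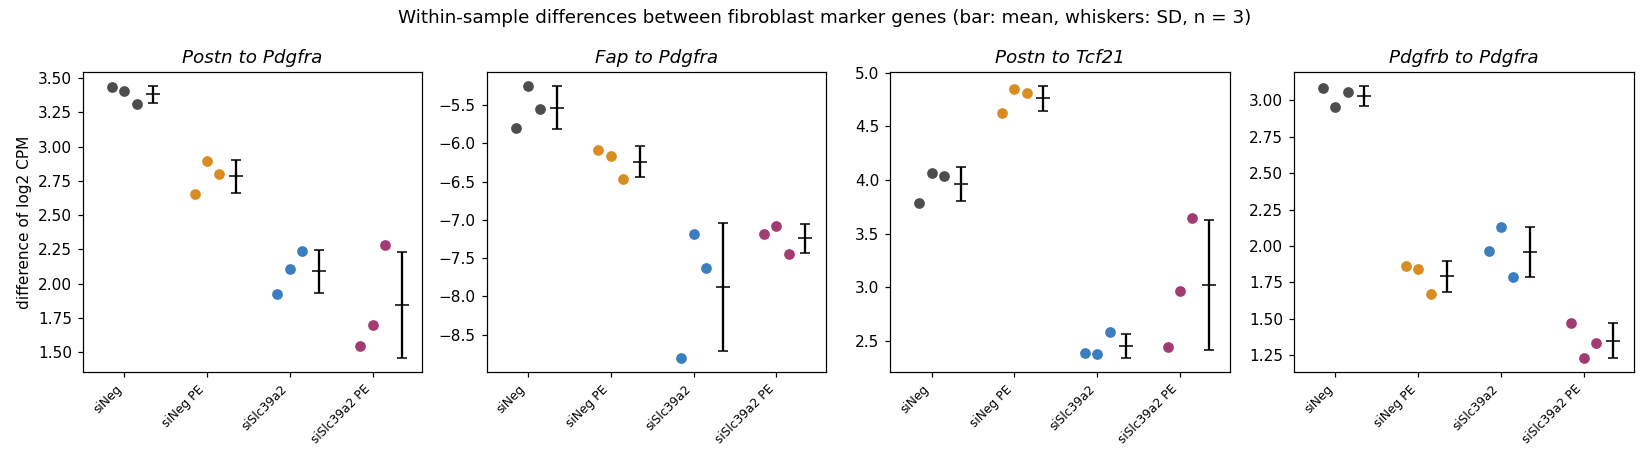
Differences of log2 CPM between pairs of member genes in each sample, by group, with the mean and SD of 3 samples in black. The distance of Postn to Pdgfra is highest in siNeg (3.31 to 3.44) and lowest in siSlc39a2 PE (1.55 to 2.28), and the distance of Postn to Tcf21 is highest in siNeg PE (4.63 to 4.85).

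The genes outside the list whose mean profile over the 4 groups lay closest to the median profile of the members included Cgref1, Gas7, Ccdc92 and Impdh1, with root mean square distances of 0.0437, 0.0506, 0.054 and 0.0558 in log2 CPM. Among the members, Lum lay closest to their median (0.086) and Tcf21 farthest (0.72). A profile of 4 group means is short, and many genes can match it.

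The wider matrix and fibroblast programme was read from 28 further fibroblast genes. In siSlc39a2 against siNeg, 21 of the 28 fell and 3 rose, with a median log2 fold change of -1.22. The shares of all genes tested were 26.4% lower and 22.8% higher. Col6a3, a chain of beaded-filament collagen, fell by 2.39 on the log2 scale. The basement membrane and elastic fibre proteins Fbln2 and Fbln1 had log2 fold changes of -2.14 and -2.13, and that of the secreted protease Htra3 was -1.95 (adjusted p = 1.16e-07, 2.03e-07, 7.78e-08 and 6.60e-09 in this order). The 3 that rose were Mgp (0.47), an inhibitor of calcification, and the transcription factors Prrx1 (0.69) and Twist1 (0.42). With PE in both groups 20 fell and 2 rose, against 28.1% of all genes tested lower and 29.2% higher. PE in siNeg cells lowered 12 and raised none, against 25.7% of all genes tested lower and 24.0% higher. Among the 12 were Mfap5 (-2.27, adjusted p = 0.00729) and Osr1 (-0.92, adjusted p = 2.49e-04). Mfap5 was at 16 to 20 counts in siNeg and 0 to 9 in siNeg PE, so the size of its fall is poorly known. PE in siSlc39a2 cells lowered 12 and raised 5, against 29.3% of all genes tested lower and 30.7% higher.

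The small leucine-rich proteoglycans, the family of Dcn and Lum, had 8 further genes tested. Of these, 4 fell and none rose with knockdown, against 26.4% of all genes tested lower and 22.8% higher. Biglycan (Bgn), the closest relative of decorin in this list, fell by 1.75 on the log2 scale from 797 ± 33.2 to 262 ± 8.52 FPKM (SD, n = 3, adjusted p = 6.00e-09), Fmod by 1.54, Aspn by 1.07 and Prelp by 0.98. Where PE raised Dcn in siNeg cells, Fmod fell by 1.25 and Prelp by 0.95. In all, 3 of the 8 were lower and none higher. There 25.7% of all genes tested were lower and 24.0% higher, so 3 of 8 lower is not far from that share.

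Of 4 genes of ligands for the receptors Pdgfra and Pdgfrb and the related Pdgfrl, none of the 5 had a call with knockdown alone by edgeR. Pdgfa, a ligand of Pdgfra, had 21.5 ± 0.764 FPKM in siNeg and 29.7 ± 4.01 in siSlc39a2 (log2 fold change 0.22, adjusted p = 0.0884). PE in siNeg cells lowered Pdgfa (-0.34, adjusted p = 0.0152) and Pdgfrl (-0.82, adjusted p = 0.00159) and raised Pdgfc (0.46, adjusted p = 0.0159). With PE in both groups, Pdgfa (0.52, adjusted p = 7.00e-04) and Pdgfc (0.38, adjusted p = 0.0259) were higher with knockdown and none of the 5 was lower. Pdgfb was at 6 to 18 counts in every sample.

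The list of fibroblast activation genes had calls in the interaction, which no test compared with the members. Without PE, knockdown lowered 18 of its 25 tested genes and raised 3, with a median of -1.22. The shares of all genes tested were 26.4% lower and 22.8% higher. Ltbp2, a protein of the matrix, fell by 2.67 on the log2 scale, Cilp by 2.33, the collagen-binding integrin Itga11 by 2.0 and Cthrc1, a secreted protein of activated fibroblasts, by 1.94 (adjusted p = 4.29e-08, 3.03e-06, 1.98e-07 and 2.19e-08). With PE, knockdown lowered 11 and raised 8, with a median of -0.14. There 28.1% of all genes tested were lower and 29.2% higher, so 8 of 25 raised is not far from that share. PE in siNeg cells lowered 10 of the 25 and raised 2, with a median of -0.43, against 25.7% of all genes tested lower and 24.0% higher. Those raised were Cnn1 (2.57) and Comp (1.76), the latter at 4 to 9 counts in siNeg and 20 to 29 in siNeg PE. Tagln (-1.48), Ctgf (-0.93) and Acta2 (-0.43) were among those lowered. The interaction was past the threshold for 8 of the 25, all of them positive, against 1.88% of all genes tested lower and 1.73% higher.

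Acta2, the smooth muscle actin of myofibroblasts, was among these 8. It had 905 ± 37.1 FPKM in siNeg, 372 ± 2.59 in siSlc39a2, 710 ± 98.8 in siNeg PE and 649 ± 37.5 in siSlc39a2 PE (SD, n = 3). Its interaction was 1.29 on the log2 scale (adjusted p = 6.88e-05), and its counts are not whole, so reads may be shared with related actins. Cnn1, a calponin of contractile smooth muscle, had 19.4 ± 1.25, 9.22 ± 0.368, 122 ± 16.2 and 174 ± 3.48 FPKM in the same order (interaction 1.71, adjusted p = 1.20e-05). Both genes are also made by smooth muscle and by immature cardiomyocytes.

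**Figure D4:**
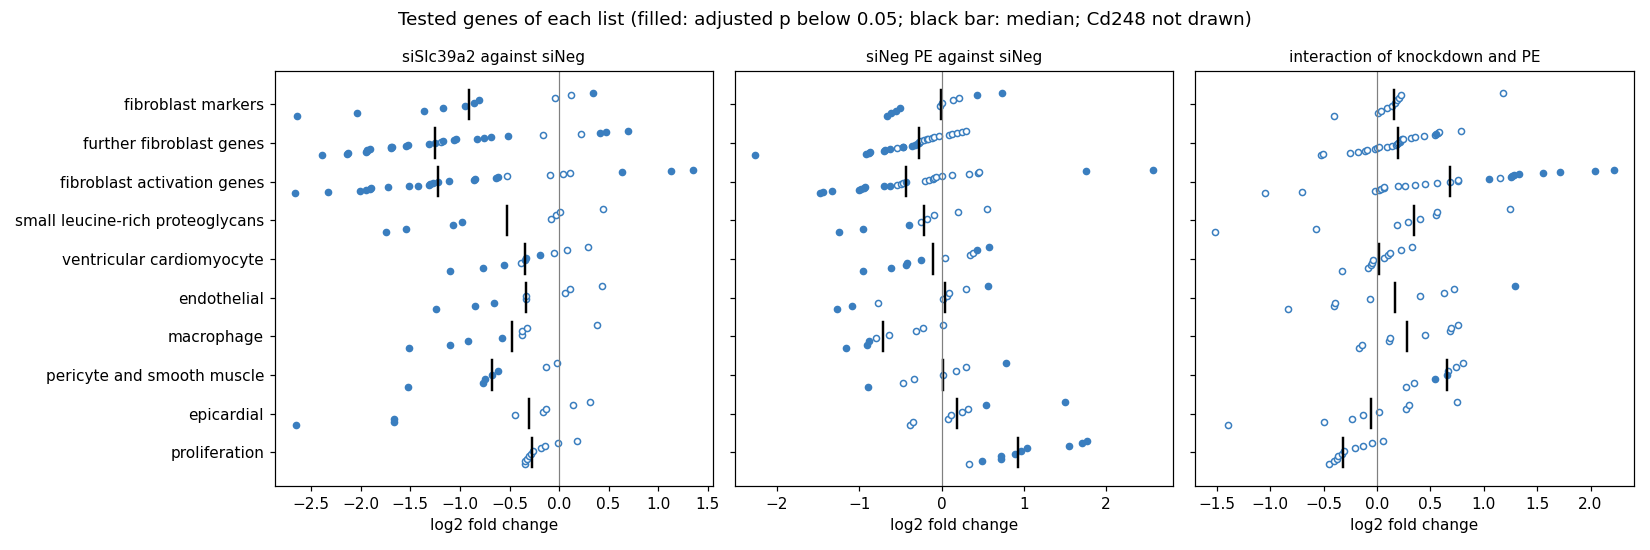
Log2 fold changes of the tested genes of each list in knockdown, PE and their interaction. Each point is a gene and each row a list, and a black bar marks the median of the genes. The list of ligand genes for Pdgfra and Pdgfrb, with Pdgfrl, is not drawn. Filled points have an adjusted p below 0.05, and Cd248, which was at 0 in all siNeg samples, is left out. The activation list has 8 filled points in the interaction panel and the fibroblast markers none, and the proliferation list is filled to the right with PE.

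Genes of other cell types were called as well. With knockdown and no PE, 6 of 10 cardiomyocyte genes fell (Myh6 by 1.10 on the log2 scale, with a list median of -0.34). So did 4 of 8 macrophage genes, 5 of 7 pericyte and smooth muscle genes, 3 of 8 epicardial genes and 3 of 8 endothelial genes. None of these lists had a gene that rose. Of all genes tested, 26.4% were lower and 22.8% higher, so 3 of 8 is not far from that share. With PE in both groups, knockdown lowered 5 of the 10 cardiomyocyte genes, 2 macrophage and 5 epicardial genes, 1 pericyte and smooth muscle gene and no endothelial gene. It raised 1 pericyte and smooth muscle gene and 1 endothelial gene. In that comparison 28.1% of all genes tested were lower and 29.2% higher. The summed FPKM of the cardiomyocyte genes was 18630 to 20273 in siNeg and 17970 to 18504 in siSlc39a2. That of the pericyte and smooth muscle genes was 102 to 112 in siNeg and 70.7 to 77.5 in siSlc39a2, mostly Mcam, and Notch3 fell by 1.52 on the log2 scale. With PE the pericyte and smooth muscle sum, mostly Mcam and Cspg4, was 149 to 165 FPKM in siNeg PE and 149 to 151 in siSlc39a2 PE. The list median was -0.011 on the log2 scale. Notch3 was the 1 gene of this list lowered by knockdown under PE (-1.18, adjusted p = 1.62e-05). Pdgfrb is also a pericyte marker. The pericyte gene Rgs5 was at 8 to 23 counts in every sample and was called lower with knockdown alone (-0.77, adjusted p = 0.0485). In the same list Notch3 was at 356 to 1823 counts, Mcam at 2928 to 8563 and Cspg4 at 4168 to 9737.

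The endothelial sum stayed between 5.01 and 7.95 FPKM over all groups, with Pecam1 at 6 to 20 counts and Cldn5 at 0 to 3. The macrophage sum was 67.5 to 97.3 FPKM in siNeg, 38.4 to 48.7 in siSlc39a2, 32.9 to 44.1 in siNeg PE and 26.2 to 32.2 in siSlc39a2 PE, mostly Lyz2, and the leukocyte gene Ptprc was at 4 to 16 counts. The epicardial sum was 13.8 to 19.3 FPKM in siNeg and 8.21 to 11.2 in siSlc39a2, where Msln fell by 2.65 on the log2 scale, while the epicardial factors Wt1 and Tbx18 had no call. The part of these cell types in the changes of the fibroblast markers was not tested.

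Proliferation genes had no call with knockdown alone, 0 of 10 with edgeR. PE in siNeg cells raised 9 of the 10, against 24.0% of all genes tested. Mki67 rose by a log2 fold change of 1.77 and Top2a by 1.70, in the comparison where Pdgfra and Dcn rose and Tcf21 fell. With PE, 6 of the 10 were lower in the knockdown cells than in the siNeg cells, against 28.1% of all genes tested. Which cells divided cannot be told from bulk RNA.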

How the data were processed

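RNA of 12 NRVM samples was sequenced at BGI. The authors deposited 2 matrices with the same genes, one of expected counts that were not normalized and one of FPKM. Per the labels, HISAT, Bowtie2 and the Rnor_6.0 genome were used. Their versions, the counting program and the annotation are not given in the sources used here. Fractional counts arise where reads match several genes. Counts of 9 members were whole in every sample, and Pdgfra had 1 fractional value.

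Counts were rounded, filtered with filterByExpr (4516 genes left out), normalized by TMM and fitted with edgeR 4.0.16 in R 4.3.3, with 1 coefficient for each of the 4 groups and 8 residual degrees of freedom. Contrasts were tested by edgeR's quasi-likelihood method, and p-values adjusted after Benjamini and Hochberg over 13967 genes. A standard error is the log2 fold change divided by the root of F. CPM used TMM library sizes, and log2 CPM a prior count of 2. The study's methods name limma after normalizeBetweenArrays, which was tried as an alternative here, since counts were at hand. No sample was a copy of another (chi-square per degree of freedom 4.77 to 35.0 within groups). P-values set each difference between groups against the spread of these samples within groups, estimated from all 4 groups together.

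The members and the other lists were chosen with earlier results of these data known. Named genes are the members, up to 4 genes of each other list with the largest change past the threshold in knockdown, up to 2 with PE, and the 5 genes of closest profile. Of the genes named by these rules or for their interaction, 2 are not reported here, though they stay in the fits, counts and medians. Mgp, Prrx1, Twist1, Twist2, Meox1, Scx, Runx1, Col1a1, Tnnt2, Pdgfa, Pdgfb, Acta2, Ptprc, Rgs5, Cldn5, Wt1, Tbx18, Cd248 and the genes named for their interaction were named after their values were seen. Ccn2 and Ccn4 appear in the files as Ctgf and Wisp1. The fits were run on simulated data for siSlc39a2 against siNeg. There edgeR recovered 81 of 90 genes changed by 1 on the log2 scale and 108 of 110 changed by 2, with 8 false calls. Far fewer genes were changed there than were called in the data, and no replicate effect was simulated. Alternatives were DESeq2 1.42.0, RLE size factors, no filter, groups fitted alone, the replicate block, limma 3.58.1 on quantile-normalized values (counts with 1 added, or FPKM with 1 or 0.1 added, in log2), a 2-fold threshold, and each replicate left out. Protein features of the members were planned and not analysed here.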

Additional observations from a re-analysis of the deposited data

Results flagged for a closer look

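None of the 10 fibroblast markers passed the test of whether the knockdown effect differed with PE. In the other lists 12 genes passed it, by the interaction test of edgeR (knockdown effect with PE less that without it, adjusted p below 0.05), all with a positive difference on the log2 scale. In the activation list these included Ctgf (2.22), Tgfb3 (2.04), Cnn1 (1.71), Ltbp2 (1.33), Acta2 (1.29), Tagln (1.25) and Tnc (1.05). In the other lists they were Flt1 (1.29), Cspg4 (0.65), Gsn (0.55) and Mcam (0.54). Ctgf, a matricellular growth factor, had 139 ± 14 FPKM (SD, n = 3) in siNeg and 77.3 ± 17.8 after PE, and 100.3 ± 8.69 in siSlc39a2 and 236 ± 11.3 after PE. Tgfb3, a transforming growth factor, had 58.7 ± 5.04, 31.2 ± 2.42, 36.3 ± 1.65 and 72.2 ± 0.789 FPKM in the same order. In both genes PE lowered the level in siNeg cells and raised it in knockdown cells.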

How the results depend on the processing

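With knockdown alone 8 members were called under every alternative fit and every left-out replicate. With PE in siNeg cells 6 to 7 were called (5 to 6 with a replicate left out), with knockdown under PE 8 to 9 (8 to 9), with PE in knockdown cells 4 to 8 (3 to 5), and in the interaction 0. Requiring a 2-fold change as well left 4, 0, 4 and 0 in the pairwise comparisons. Without siSlc39a2 replicate 2, the comparison of siSlc39a2 PE with siSlc39a2 had 3 calls.

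Replicate numbers did not pair all samples: 8 of 18 same-numbered pairs correlated above 0.1 (range -0.090 to 0.32, differently numbered -0.25 to 0.24). Among siNeg, siNeg PE and siSlc39a2 PE they correlated at 0.23 to 0.32 for replicate 1 and 0.12 to 0.21 for replicate 3. For replicate 2 the values were 0.0039 to 0.053, and same-numbered pairs with siSlc39a2 ran from -0.090 to 0.22. The main fit held no replicate term, so any shared replicate effect stayed in its spread. With the replicate block, Pdgfra under PE was called (-0.28), as were Thy1 (-0.42) and Fap (1.18) with PE in knockdown cells. Calls in the interaction over all genes went from 504 to 1053 (831 with DESeq2, 805 with limma on log2(FPKM + 1), and 255 to 537 with a replicate left out, where siSlc39a2 replicate 3 turned 241 higher and 263 lower into 181 and 344). Those in the activation list went from 8 to 13, in the further fibroblast genes from 1 to 4 and in the small proteoglycans from 0 to 3, those of macrophage genes from 2 to 4 under PE and from 0 to 1 in the interaction, and those of proliferation genes with knockdown from 0 to 5.

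Directions turned only for differences with no call, and the cause was not tested. Without the filter, Ddr2 with knockdown was 0.00035, Fap with PE 0.0065, and the interactions of Dcn and Postn -0.0022 and -0.030. With the block, Fap with PE was 0.021 and the interaction of Postn -0.031. That interaction was -0.0081 with RLE and -0.0082 with DESeq2. With groups alone, Fap with PE was 0.0056. With limma on log2(FPKM + 1), Ddr2 was 0.021 with knockdown, -0.11 with PE and -0.00066 with PE in knockdown cells, and the interactions of Dcn, Postn and Dpt were -0.066, -0.16 and -0.037. With log2(FPKM + 0.1) these were 0.023, -0.11, -0.0017, -0.061, -0.17 and -0.098. With log2(count + 1), Fap with PE was 0.037 and the 3 interactions -0.075, -0.12 and -0.028. Without siNeg replicate 1 and siSlc39a2 PE replicate 3, Ddr2 was -0.13 with PE, -0.062 with knockdown under PE and -0.018 with PE in knockdown cells, Postn with PE in knockdown cells -0.22, and the interactions of Dcn, Lum and Postn -0.21, -0.041 and -0.29. With 1 replicate left out, the ranges were -0.17 to 0.050 (Ddr2, knockdown), -0.13 to 0.13 (Ddr2, PE), -0.062 to 0.27 (Ddr2, knockdown under PE), -0.017 to 0.30 (Ddr2, PE in knockdown cells), -0.24 to 0.23 (Fap, PE) and -0.22 to 0.35 (Postn, PE in knockdown cells). In the interaction they were -0.19 to 0.17 for Dcn, -0.024 to 0.31 for Ddr2, -0.046 to 0.19 for Dpt, -0.024 to 0.25 for Lum and -0.37 to 0.19 for Postn.

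Depth limited Fap, whose log2 fold change with knockdown was -2.64 on counts, -1.66 on log2(FPKM + 0.1) and -0.40 on log2(FPKM + 1). Groups of 3 leave an interaction less precise than a pairwise difference.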

Other observations

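Transcription factors of the fibroblast and epicardial lineages were grouped after their values were seen, from the lists above, and are given as values with no test of the group. Of Tcf21, Twist1, Twist2, Prrx1, Osr1, Meox1, Scx, Runx1, Wt1 and Tbx18, 4 were higher and none lower in siSlc39a2 against siNeg, where 22.8% of all genes tested were higher and 26.4% lower. Prrx1 had a log2 fold change of 0.69 (adjusted p = 0.00239), Meox1 of 0.64 (adjusted p = 0.0443), Twist1 of 0.42 (adjusted p = 0.00773) and Tcf21 of 0.34 (adjusted p = 0.00236). The remaining 6 lay between -0.16 and 0.32. With PE in both groups 5 were higher and none lower (29.2% and 28.1% of all genes tested), with a median of 0.37. In the same comparisons Col1a1 and Dpt fell. PE in siNeg cells lowered 3 of the 10 and raised none, a share lowered that is near the 25.7% of all genes tested. Meox1 was at 26 to 109 counts.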
